A study of Oryza sativa with 6 samples.

Results

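H3K9ac peaks that carried no other acetylation peak were examined in rice leaf chromatin. They were chosen by their positions: a row of the H3K9ac list was kept when it shared no base with any H3K4ac or H3K27ac peak. This rule kept 3775 of the 26693 H3K9ac peaks (14.1%), out of 82347 peaks in the lists of all 6 marks. The lists come from leaves of 2-week-old greenhouse seedlings of the rice cultivar Nipponbare, untreated as far as the labels say. Chromatin was immunoprecipitated with commercial antibodies against H3K4ac, H3K9ac, H3K27ac, H3K27me3, H3K9me1 and H3K9me3, and each mark has 1 library. A peak is a stretch of the genome where the authors' peak caller found reads piled up above background, and its score is that caller's own value, never below 50.0 in these lists. Read depth and any control library are unknown. The lists name no genome build, and the paper takes its genes from a TIGR rice release without stating the build of the ChIP-seq alignment, so positions are given as listed. A leaf is a mixture of cell types, so 2 marks listed at a place need not sit in the same cells.

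Acetylation of lysine residues in the tail of histone H3 is added by histone acetyltransferases and removed by deacetylases. In plants, as in animals, H3K9ac and H3K27ac are known from the start of transcribed genes, and acetylation of H3K4 is found at promoters as well. H3K27me3 is laid down by Polycomb repressive complex 2 and marks genes that are kept silent in a tissue, among them many developmental regulators. The same lysine 27 cannot be acetylated and trimethylated at once, whereas lysine 9 and lysine 27 are different residues and can be modified on the same tail. A place with H3K9ac in the absence of a listed H3K4ac or H3K27ac peak is thus a departure from the usual company of this mark, and whether the place also holds H3K27me3 was the question put to the lists.

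The rule compares lists, and each list ends at a score of 50. Absence from the H3K4ac and H3K27ac lists therefore means that no peak was called there, not that the modification was absent. The H3K4ac list held 25425 peaks and the H3K27ac list 9309. At the edge of the rule, the kept peak nearest to another acetylation peak lay on chromosome 1 from 43220802 to 43221321, scored 55.01 and touched that peak without sharing a base. The next kept peaks lay 5 bp away. The excluded peak with the smallest overlap shared 11 bp, also on chromosome 1, from 33135323 to 33135953, with a score of 62.80. The H3K9ac list held 16954 peaks with a score of at least 100. With that score required in all lists the rule would keep 1723 of them, and with it required of H3K9ac alone 285. Few peaks sat close to the limit set by the overlap. Of the 22918 excluded peaks, 19 shared less than 100 bp with another acetylation peak, and the median excluded peak had 100% of its bases under an H3K4ac or an H3K27ac peak. Of the kept peaks, 78 (2.07%) had another acetylation peak within 200 bp.

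The H3K9ac peaks without other acetylation were low and narrow. Their scores ran from 50.01 to 360.07 with a median of 63.80, compared with 152.35 for the other H3K9ac peaks. A score of at least 100 was reached by 285 of them (7.55%) and by 16669 of the other peaks (72.7%). Ranked within the whole H3K9ac list, their median stood at the percentile 13.5, and 98.4% of them lay below the middle of the list. Their median width was 687 bp with quartiles of 561 and 850 bp, whereas the other peaks had a median of 918 bp. Together they covered 2.81 Mb, or 10.7% of the bases under H3K9ac peaks. Score, width and the overlap with another list come from the same peaks that the rule used, and a wide peak has more room to touch another one. These values therefore describe the members and are no test.

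**Figure D1:**
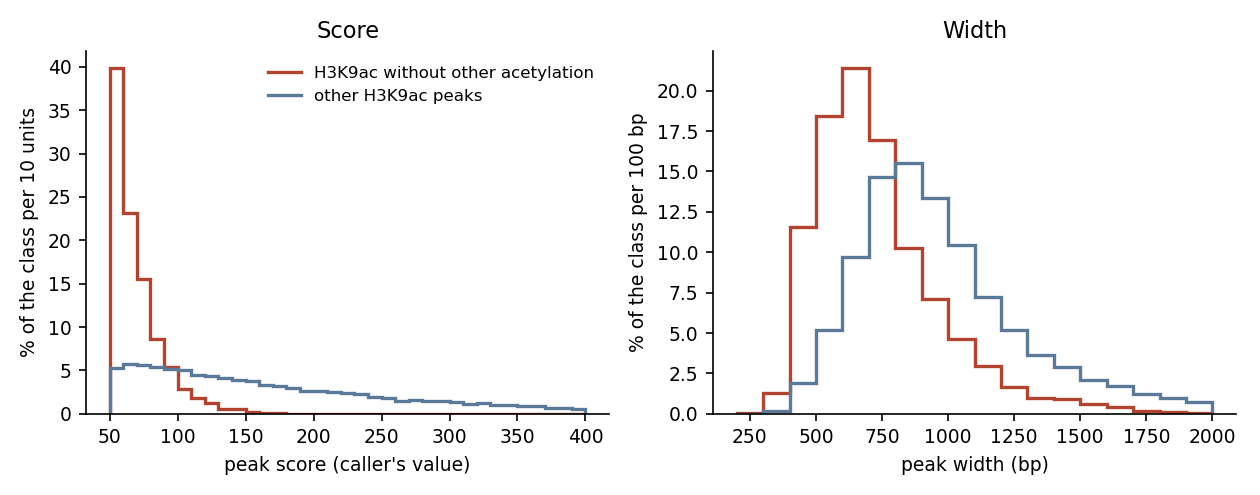
Score (left, caller's value, 50 to 400 in steps of 10) and width (right, bp, up to 2000 in steps of 100) of the 3775 H3K9ac peaks without other acetylation (red) and the 22918 other H3K9ac peaks (blue), each as the percentage of its class; higher values are not drawn. The red score line is highest in its first step, 50 to 60, below the median of 63.80. The red width line is highest at 600 to 700 bp, the step that holds the median of 687 bp.

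The H3K9ac list was cut by score into 10 groups of 2669 or 2670 peaks, and the share without other acetylation fell steeply from the lowest group to the highest. It was 55.5% in the lowest group, with scores up to 59.80, then 39.5% in the second, 26.0% in the third and 12.7% in the fourth. In the seventh group it was 0.449%, from 12 peaks. The upper groups were nearly empty of such peaks, with none in the eighth and the ninth and 1 in the tenth. A count of 0 among 2669 peaks allows a share of up to 0.112% (3 counts). This limit and the Wilson intervals here and below cover counting error only. Peaks of 1 library are not replicates, and no test between marks can be made with 1 library each.

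**Figure D2:**
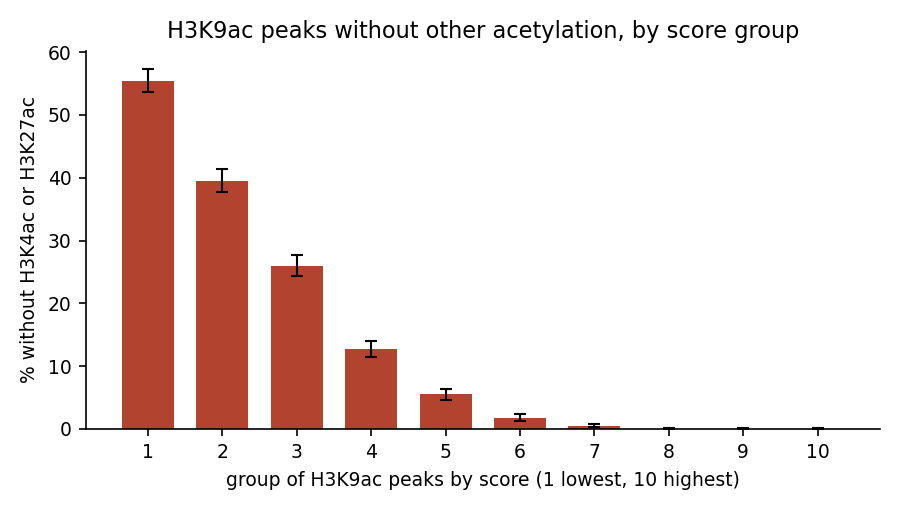
Percentage of H3K9ac peaks without an H3K4ac or H3K27ac peak (vertical axis, bars start at 0) in 10 groups of the H3K9ac list by score; error bars are 95% Wilson intervals. The bars fall from 55.5% in the lowest group to 0.449% in the seventh, and the 3 highest groups hold 1 such peak in all.

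H3K27me3 did not enter the rule, and it was listed at 1125 of the 3775 H3K9ac peaks without other acetylation. This is 29.8% of them (95% Wilson interval 28.4 to 31.3%), against 12.3% of all H3K9ac peaks and 9.38% of the H3K9ac peaks with another acetylation (9.01 to 9.77%). The share was thus 3.18 times that of the other H3K9ac peaks. H3K27me3 peaks covered 6.93% of the span of the chromosomes, taken up to the last listed peak. This is a share of bases, and a peak can touch H3K27me3 more easily than a single base can. The midpoint of the peak was on H3K27me3 for 28.7% of the members and 8.33% of the other H3K9ac peaks. The 2650 members that overlapped no H3K27me3 peak included 2611 on none of the 3 methylation marks, which are 69.2% of all members. This is a lower share than the 86.2% of all H3K9ac peaks and the 89.0% of the other H3K9ac peaks on no methylation mark.

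The other H3K9ac peaks differed among themselves. H3K27me3 was at 5.53% of the 8825 H3K9ac peaks with both H3K4ac and H3K27ac, and at 11.4% of the 13907 with H3K4ac but no H3K27ac. It was at 44.1% (37.1 to 51.3%) of the 186 with H3K27ac but no H3K4ac. The members therefore lay between these classes, and the few peaks with H3K27ac alone had the highest share. The mirror class, H3K4ac peaks without H3K9ac or H3K27ac, held 3108 peaks with a median score of 67.80 and a median width of 1007 bp. Of these, 20.5% (19.1 to 22.0%) were on H3K27me3, against 9.90% of the other H3K4ac peaks. In both lists the peaks without other acetylation met H3K27me3 more often than the rest. The listed share was higher for H3K9ac than for H3K4ac. These lists come from different libraries of unknown depth, and the intervals cover counting error only. The difference between the marks was therefore not tested. H3K4ac peaks were wider, which gives them more room to touch H3K27me3.

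Because the members score low, H3K9ac peaks of like score were compared. In each of the 6 score groups with at least 20 members, the members were on H3K27me3 more often than the other H3K9ac peaks, and their 95% intervals did not overlap. In the lowest group the shares were 28.4% of 1481 members and 18.2% of 1188 other peaks. In the fourth group they were 32.6% and 15.2%, and in the sixth 41.3% of 46 members and 8.88% of 2623 other peaks. Among the other H3K9ac peaks the share on H3K27me3 fell with rising score, down to 3.56% in the highest group. Among the members of these 6 groups it ran from 28.4 to 41.3% without such a fall. Among peaks of a score below 100 the difference was smaller than over the whole list, with 29.6% of 3490 members and 15.9% of 6249 other peaks on H3K27me3. With a score of at least 100 required in all 6 lists, the shares were 17.4% of 1723 members and 4.56% of 15231 other peaks.

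**Figure D3:**
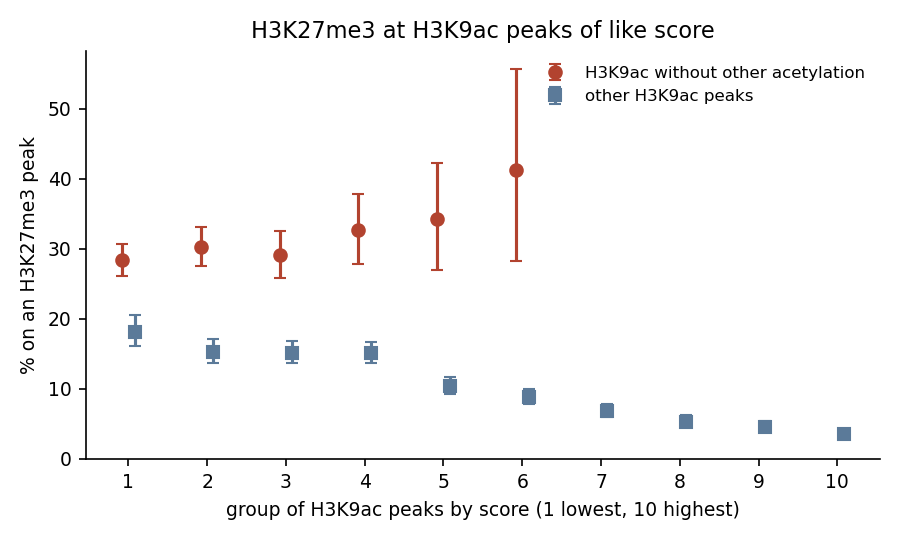
Percentage of H3K9ac peaks on an H3K27me3 peak (vertical axis) by score group of the H3K9ac list (horizontal axis), for peaks without other acetylation (red circles, groups with at least 20 of them) and the other H3K9ac peaks (blue squares); error bars are 95% Wilson intervals. Red lies above blue in all 6 groups shown for both, from 28.4 against 18.2% in the lowest to 41.3 against 8.88% in the sixth.

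Width, the chromosome and the surroundings were treated in the same way. In 10 groups by width the members' share on H3K27me3 ran from 24.4 to 36.0% and that of the other peaks from 7.70 to 11.5%, with separate intervals in all 10. On each of the 12 chromosomes the members' share was higher, again with separate intervals. It was lowest on chromosome 2, at 24.9% against 8.45%, and highest on chromosome 12, at 37.3% against 12.6%. Chromosome 11 was next, at 35.5% against 13.3%. H3K9ac peaks were then grouped by how much H3K27me3 lay in the surrounding 100 kb, leaving out the H3K27me3 peak that the H3K9ac peak itself shared most bases with. Where the surroundings held none, 20.6% of 209 members were on H3K27me3, against 5.31% of 1938 other peaks. Where more than 20% of the surroundings was covered, the shares were 43.3% of 120 members and 17.7% of 526 other peaks. Members formed 9.73% of the H3K9ac peaks in the first kind of surroundings (8.55 to 11.1%) and 18.6% in the second (15.8 to 21.8%). Both the share of members and their contact with H3K27me3 were thus higher where H3K27me3 was dense.

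The members that overlapped H3K27me3 mostly lay wholly within an H3K27me3 peak. Of these 1125, 792 (70.4%; 67.7 to 73.0%) lay wholly inside an H3K27me3 peak, and 50 (4.44%; 3.39 to 5.81%) had under 50% of their bases covered by the H3K27me3 peak they shared most with. For the 2150 other H3K9ac peaks on H3K27me3, which were wider, these shares were 47.1% and 13.8%. The midpoints of the members lay a median of 299 bp (264 to 332 bp; intervals of medians are order-statistic intervals) from the midpoint of the H3K27me3 peak. For the other peaks this was 278 bp (252 to 297 bp), an interval that overlaps the first. With the distance given as a share of the way from the midpoint to the rim, the medians were 33.8% and 36.0%. For the second measure the intervals overlapped as well (31.7 to 36.6% and 34.1 to 37.4%).

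**Figure D4:**
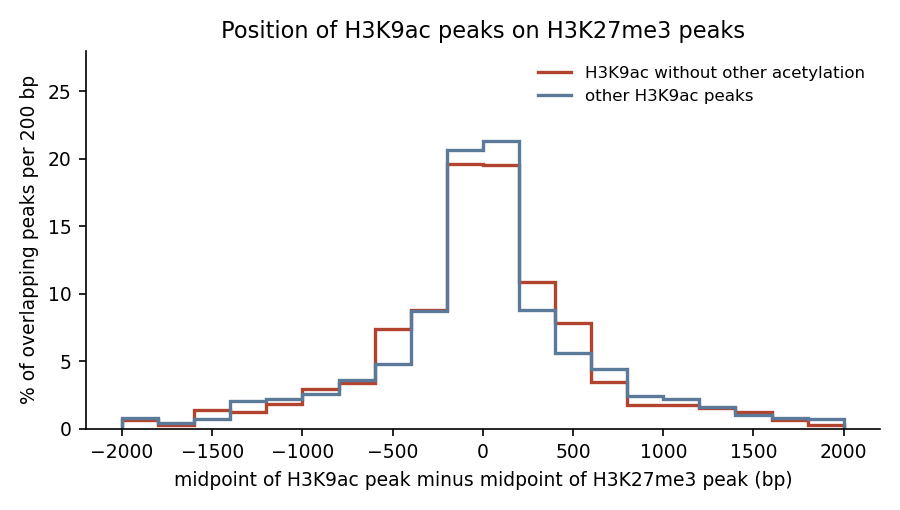
Distance of the midpoint of an H3K9ac peak from the midpoint of the H3K27me3 peak it shares most bases with (horizontal axis, bp, steps of 200), as the percentage of overlapping peaks (vertical axis), for the 1125 H3K9ac peaks without other acetylation (red) and the 2150 other H3K9ac peaks (blue). Both are highest at the centre; 3.56% of the red and 4.28% of the blue class lie beyond 2000 bp and are not drawn.

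Seen from the H3K27me3 list, 1109 of its 12959 peaks (8.56%) held at least 1 of the H3K9ac peaks without other acetylation. They held 1 each in 1091 cases and 2 in 18 cases. In 1080 of the 1109 there was no other H3K9ac peak, and in 1046 there was no H3K4ac or H3K27ac peak anywhere along the H3K27me3 peak. The rule keeps H3K4ac and H3K27ac off the bases of the member. Members also lay a median of 4895 bp from either mark and 5131 bp from another H3K9ac peak. Both counts are therefore a description, and the same shares over all H3K27me3 peaks are not given. By their median score the 1109 H3K27me3 peaks with a member stood above the middle of their list. The 1109 had a median width of 1814 bp (1704 to 1918 bp) and a median score of 278.90, at the percentile 59.3 (56.6 to 62.1) of the H3K27me3 list. The 2103 H3K27me3 peaks with only other H3K9ac peaks had a median width of 1531 bp (1468 to 1590 bp) and a median percentile of 52.3 (50.5 to 54.6). For the 9747 without any H3K9ac peak the values were 1490 bp (1461 to 1516 bp) and 48.3 (47.3 to 49.3). A wide peak has more room to hold another peak, and width and score of a peak go together, so these values are a description.

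Among the 2650 members off H3K27me3, the nearest H3K27me3 peak was a median of 10531 bp away (9885 to 10999 bp), compared with 13097 bp (12846 to 13342 bp) for the 20768 other H3K9ac peaks off H3K27me3. An H3K27me3 peak lay within 5 kb of 30.7% of these members (29.0 to 32.5%) and of 23.0% of these other peaks (22.5 to 23.6%). Between members on and off H3K27me3, the median H3K9ac scores and widths had overlapping intervals. The median score was 63.95 (63.07 to 65.61) on H3K27me3 and 63.76 (63.03 to 64.60) off it, and the median width was 699 bp (686 to 710 bp) and 683 bp (674 to 691 bp).

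H3K9me1 and H3K9me3, which the paper counts with the repressive marks, were rare at these places. H3K9me1 was listed at 20 of the 3775 (0.530%; 0.343 to 0.817%), against 1.19% of all H3K9ac peaks and 1.30% of the other H3K9ac peaks (1.16 to 1.46%). The share of members was the lower one, with separate intervals; the intervals overlapped with a score of at least 100 in all lists and for H3K9ac midpoints. Among peaks of a score below 100 it was 0.458% of the members (0.282 to 0.743%), compared with 1.39% of the other peaks (1.13 to 1.71%). At an H3K9ac score of at least 100 the order turned, with 4 of 285 members on H3K9me1 (1.404%; 0.547 to 3.55%) and 1.27% of the other peaks. Against H3K9ac peaks with H3K4ac only, at 0.776% (0.577 to 1.04%) among those low scores, the intervals overlapped. H3K9me3 was at 45 members (1.19%; 0.892 to 1.59%), compared with 1.37% of all H3K9ac peaks and 1.41% of the other peaks (1.26 to 1.57%), and these intervals overlapped. The H3K9me1 list held 5002 peaks and the H3K9me3 list 2959, against 12959 for H3K27me3. The H3K9me1 list covered 1.05% and the H3K9me3 list 2.23% of the chromosome span, against 6.93%, so fewer contacts with them are possible. Of the 20 members on H3K9me1, 8 were on H3K27me3 as well, with a median width of 1295 bp and a median score of 80.33, and 4 were on H3K9me3 as well. Another 14 members were on H3K27me3 and H3K9me3. No member was on all 3 methylation marks.

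The distance to the nearest H3K4ac or H3K27ac peak ran from 0 to 85597 bp, with a median of 4895 bp and quartiles of 2295 and 9037 bp. It is part of the rule and is given as a description. An H3K4ac peak was the nearer of both in 92.6% of cases, and the median distance was 4994 bp to H3K4ac and 14508 bp to the shorter list of H3K27ac. Within 1 kb of another acetylation peak lay 406 members (10.8%), and 799 (21.2%) had none within 10 kb. The share on H3K27me3 was higher beyond 5 kb than nearer by. It was at 24.3% (22.3 to 26.6%) of the 1524 members 1 to 5 kb away, at 33.3% (30.5 to 36.2%) of the 1046 that lay 5 to 10 kb away, at 38.8% (34.9 to 42.8%) of the 578 that lay 10 to 20 kb away and at 37.6% (31.4 to 44.1%) of the 221 farther off. Below 5 kb there was no trend, with 25.3% at 500 to 1000 bp and 23.1% at 200 to 500 bp. For the 78 nearest, under 200 bp, it was 24.4% (16.2 to 34.9%). The median score of these 78 was 60.6, which falls in the second score group. Their interval lies above the 15.3% of the other H3K9ac peaks in that group (13.6 to 17.1%), though the 2 intervals overlap. It includes the 18.2% of the other peaks in the lowest group.

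**Figure D5:**
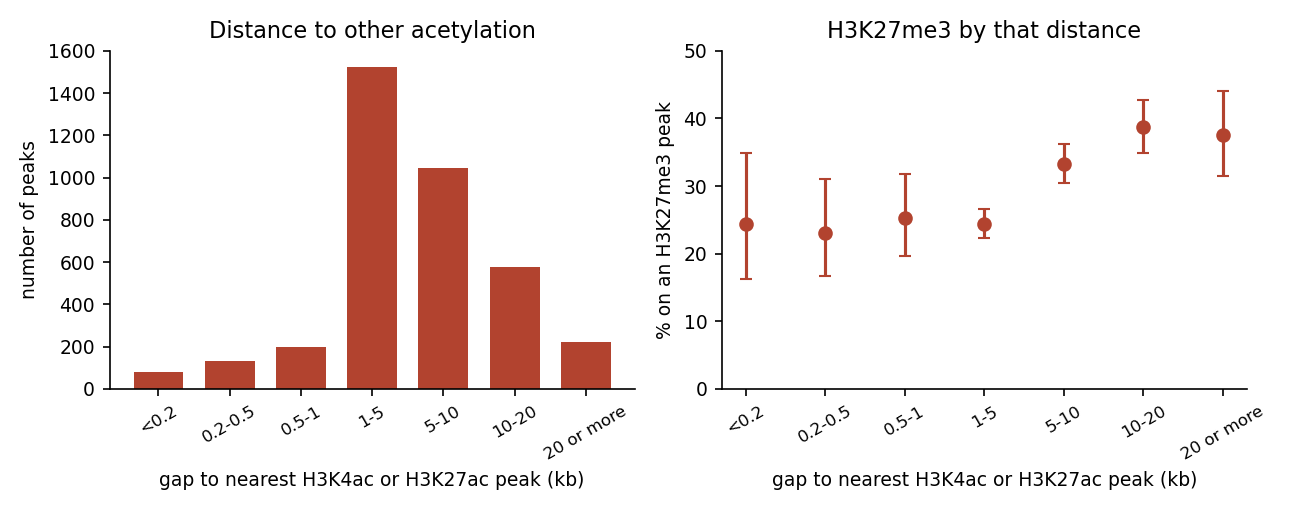
Left, number of H3K9ac peaks without other acetylation by the gap to the nearest H3K4ac or H3K27ac peak (kb; the classes are of unequal width); right, the percentage of each class on an H3K27me3 peak, with 95% Wilson intervals. The largest class, 1524 peaks, lies 1 to 5 kb away, and the percentage on H3K27me3 is 24.3% there, between 23.1 and 25.3% in the nearer classes, 38.8% at 10 to 20 kb and 37.6% beyond.

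The members were spread over the genome. Every chromosome had some, from 225 on chromosome 12 to 488 on chromosome 1, and their share of the chromosome's H3K9ac peaks ran from 12.9% on chromosome 2 to 16.0% on chromosome 9. The interval missed the overall 14.1% on 2 of the 12 chromosomes: chromosome 6, at 15.9% (14.5 to 17.5%), and chromosome 9 (14.3 to 17.9%). In 377 bins of 1 Mb with at least 20 H3K9ac peaks, a median of 14.2% of them were members, with a range of 0 to 31.0%. Across these bins the share of members rose with the share of bases under H3K27me3 (Spearman's rho 0.330), and was hardly related to the number of H3K9ac peaks (rho -0.070) or to the share under H3K9me3 (rho 0.029). The bins share the same libraries, and these correlations are a description. Members had another member as their nearest H3K9ac peak somewhat more often than the other peaks did, though most members did not. The nearest other H3K9ac peak was itself without other acetylation for 17.3% of the members (16.1 to 18.5%) and for 13.3% of the other H3K9ac peaks (12.9 to 13.8%). Where the neighbour was a member too, 36.3% of the members were on H3K27me3 (32.7 to 40.1%), and otherwise 28.4% (26.9 to 30.1%).

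A few members stood out by score or width. The highest-scoring lay on chromosome 7 from 14230369 to 14234646. It was 4278 bp wide, scored 360.07, which is the percentile 92.6 of the H3K9ac list, and lay 10046 bp from the nearest other acetylation peak. H3K27me3 covered 93.2% of it with a peak scoring 298.43, and an H3K9me1 peak of 7244 bp with a score of 108.41 lay there as well. It is the only member in the 3 highest score groups. The widest member followed 4435 bp further on, from 14239082 to 14244617, with a width of 5536 bp and a score of 111.72. It was also on H3K27me3 and H3K9me1, but H3K27me3 covered only 45.4% of it. The next in width lay close to each other on chromosome 4, from 9149287 to 9154023 (4737 bp, score 54.58, on no methylation mark) and from 9136093 to 9140372 (4280 bp, score 82.50, on H3K9me1 and H3K9me3). Of the 3775 members 17 were wider than 2000 bp, so these places were exceptions.

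The other 4 of the 5 highest-scoring members were 915 to 1471 bp wide. They lay on chromosome 2 from 5535959 to 5536946 (score 196.08), chromosome 5 from 28403565 to 28404641 (182.09), chromosome 1 from 42532257 to 42533727 (178.79) and chromosome 5 from 29411597 to 29412511 (177.68). The first 3 of these were on no methylation mark and had no other acetylation peak within 5 kb. The last lay 307 bp from another acetylation peak and wholly under an H3K27me3 peak of 3132 bp, which scored 1358.29 and stood at the percentile 99.8 of its list. Next among the members on H3K27me3 was a peak on chromosome 2 from 18746492 to 18747930, with a score of 166.01. It also lay wholly under H3K27me3, and the nearest other acetylation peak was 13011 bp away. It stood under an H3K27me3 peak at the percentile 70.6, and the highest-scoring member under one at 61.6, so of these 3 H3K27me3 peaks only that on chromosome 5 was near the top of its list.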

How the data were processed

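The peak lists were made by the authors. The submitters' processing notes name Bowtie and the lists name MACS 1.4; for these libraries the build, settings and any control library are not given in the sources used here. The deposited score was read as the MACS value, -10 log10 of a p-value, going by the tool's name and the lowest score of 50. Depth is unknown, so the length of a list may reflect depth as well as the mark, and no interval across libraries can be given.

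Overlap meant at least 1 shared bp. Members were the H3K9ac peaks overlapping neither H3K4ac nor H3K27ac. Shares carry 95% Wilson intervals and medians 95% order-statistic intervals, for counting error only; peaks are not replicates and no p-value was computed. Overlap and distance routines were tested on simulated peaks of 1 bp, placed on or between the listed H3K4ac peaks. The test did not cover wider peaks or the alternative settings. Places were named by rule: the 5 highest-scoring and 3 widest members, the 3 highest-scoring on H3K27me3, the pair at the edge of the rule and the 3 windows of 100 kb with the most members. The rule for members, groups and alternatives was chosen with earlier results of these lists known. Alternatives were a minimum score of 100 for H3K9ac or for all lists, an overlap of 50% of the shorter peak, no other acetylation within 500 bp, and merging peaks closer than 200 bp. The use of H3K9ac midpoints was chosen after seeing the data. The available gene table belongs to another assembly, so no gene or sequence is given. Python 3.11.15, numpy 2.4.6, pandas 2.3.3, scipy 1.17.1 and matplotlib 3.10.9 were used.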

Additional observations from a re-analysis of the deposited data

How the results depend on the processing

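With H3K9ac peaks of a score of at least 100, 285 members were left among 16954 H3K9ac peaks. With that score required in all lists there were 1723 members among 16954, because an H3K4ac or H3K27ac peak under 100 then no longer excluded a peak. Their share on H3K27me3 was 32.6% and 17.4% under these settings, against 6.95% and 4.56% of the other H3K9ac peaks. The members' share stayed 3.16 to 4.69 times that of the other peaks under all 6 alternatives. These alternatives did not match the classes by score. Among H3K9ac peaks of a score below 100 the shares were closer, at 29.6% of the members and 15.9% of the other peaks. That cut does not match the scores either, with medians of 62.48 for the members and 74.58 for the other peaks. By score group the shares were 28.4 against 18.2% in the lowest group and 41.3 against 8.88% in the sixth. The other peaks' share was also outside its interval where 50% of the shorter peak had to be shared (8.61%) and at midpoints (8.33%). For H3K9me1 the members' share was 1.404% with H3K9ac of at least 100, where it rests on 4 of 285 peaks and lay above the other peaks' 1.27%; it was 0.262% at 50% overlap and 0.265% at midpoints, where its interval overlapped that of the other peaks. That of the other peaks was 0.663% with the score required in all lists, 0.599% at 50% overlap and 0.554% at midpoints. For H3K9me3, in the order of H3K9ac of at least 100, all lists, 50% overlap and midpoints, the members' share was 0.702%, 0.116%, 0.864% and 0.874%; that of the other peaks was 0.230% with all lists, 0.638% at 50% overlap and 0.628% at midpoints, so for H3K9me3 the order of the classes changed in the last 2 settings. The causes were not tested. Other values for numbers and shares (20) stayed within their limits. No paired analysis was possible because each mark has 1 library, and no replicate could be left out.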

Other observations

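Among the 3696 windows of 100 kb that held H3K9ac peaks, 17 held 5 or more of the H3K9ac peaks without other acetylation. The fullest lay on chromosome 7 from 21400001 to 21500000, where 7 of 9 H3K9ac peaks had no other acetylation and 6 of the 7 were on H3K27me3. Their H3K9ac scores were low, from 54.06 to 75.08, and a pair of them shared 1 H3K27me3 peak, which scored 398.12. Next was the window on chromosome 2 from 21600001 to 21700000, with 6 of 8 H3K9ac peaks, 3 of them on H3K27me3. Its highest member scored 138.24 and sat on an H3K27me3 peak scoring 1082.15. On chromosome 5, from 25500001 to 25600000, there were also 6 of 8, with scores from 54.61 to 64.98, and none of them was on H3K27me3. Dense groups of these peaks thus occurred both with and without H3K27me3.

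The member farthest from other acetylation lay on chromosome 12 from 21870702 to 21871439, a place picked after its value was seen. It scored 69.23, was 85597 bp from the nearest H3K4ac or H3K27ac peak, and lay wholly under an H3K27me3 peak of 3793 bp that scored 209.65. Where the nearest other acetylation peak of a member was H3K4ac, that H3K4ac peak was itself without other acetylation in 17.2% of 3496 cases (16.0 to 18.5%), compared with 12.2% of the whole H3K4ac list.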
